A study of Mus musculus with 1087 samples.

Results

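Cluster 9 is a set of 43 cells that the study's authors placed in their class HC2, and it was set against cluster 8, whose cells they placed in class HC1. Both clusters come from the authors' clustering of the single-cell transcriptomes without the cells sorted as CD27+, and they hold 241 of the 1087 cells of the series, of which 43 are in cluster 9. The cells were taken from the aorta-gonad-mesonephros region of Gata2V/+ mouse embryos, together with the vitelline and umbilical arteries inside the trunk, and carried 1 Gata2 allele linked to the Venus fluorescent reporter. Wild-type C57BL/6HsdJOla females had been mated to Gata2V/V males, the tissue was digested with collagenase, and live Kit-high cells were sorted by flow cytometry with antibodies against CD31, cKit and CD27.

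The cells come from 4 groups. Intermediate Venus (G2VInt) cells at E10 include 5 of cluster 9 and 36 of cluster 8, and G2VInt cells at E11 include 7 and 31. G2VInt cells at E11.5 include 8 and 39, and low Venus (G2VLo) cells at E11.5 include 23 and 92. All groups share the reporter allele, and no embryo without it is among them. Embryos, litters and sorts are not named in the labels. Each group therefore counts as 1 sample, with cells that cannot serve as replicates, and the comparison has no test and no p-value. The clusters were formed on the same transcripts that are compared here, so the differences below describe the clusters and are not independent evidence for them.

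Intra-aortic clusters are buds of round cells on the wall of the embryonic aorta, which arise when endothelial cells of the wall turn hematopoietic, and the first hematopoietic stem cells (HSCs) lie among them. The same buds hold progenitors that are already set on a lineage. The granulocyte and monocyte lineage is marked early by the enzymes that its precursors pack into primary granules: Mpo, the peroxidase that makes hypochlorous acid, and Prtn3, Elane and Ctsg, serine proteases of the same granules.

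The transcription factors PU.1 (gene Spi1), C/EBP alpha (gene Cebpa), Runx1 and Myb act on granule genes in myeloid precursors. Bases before the start of Mpo, Prtn3 and Elane are shown because they encode granule enzymes described below, and because Spi1, Cebpa, Runx1 and Myb are reported on below. The sequences are from RefSeq on GRCm38.p6, 5′ to 3′ on the plus strand, on which all 3 genes lie. Each begins 250 bases before the RefSeq start and ends before the first exon that the GENCODE annotation of the same build places there, since its transcripts of these genes start earlier. This left 47 bases for Mpo at chr11:87793534-87793580, 197 for Prtn3 at chr10:79879417-79879613 and 185 for Elane at chr10:79886062-79886246. Capitals mark matches on either strand to 5 short motifs. These were GAGGAA for PU.1 and, for Runx factors, the letters TGTGGT. For Myb the motif was AACTG and for the GATA factors it was AGATAA, while C/EBP factors had TTGCNNAA.
Mpo: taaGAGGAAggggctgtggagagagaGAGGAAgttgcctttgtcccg
Prtn3: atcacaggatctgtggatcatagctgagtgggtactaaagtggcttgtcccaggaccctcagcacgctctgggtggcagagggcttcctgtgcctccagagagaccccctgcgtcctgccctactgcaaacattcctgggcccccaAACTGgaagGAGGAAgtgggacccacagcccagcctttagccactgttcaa
Elane: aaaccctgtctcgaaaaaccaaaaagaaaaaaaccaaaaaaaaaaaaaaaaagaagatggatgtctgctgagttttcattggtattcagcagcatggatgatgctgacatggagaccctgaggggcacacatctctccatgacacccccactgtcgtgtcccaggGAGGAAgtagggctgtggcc
GAGGAA was found 2 times before Mpo, 1 time before Prtn3 and 1 time before Elane. Of 32851 RefSeq promoters cut to the same first 47, 197 and 185 bases, 4.51%, 18.6% and 17.6% hold it. AACTG was found 1 time before Prtn3, and 33.3% of the promoters cut to that length hold it. The Runx, GATA and C/EBP motifs had no match in these 3 windows, and in the first 197 bases of all promoters 11.4%, 8.30% and 8.02% hold them. Windows of 150 to 250 bases before Cd244a, Flt3, Cst7, Plac8 and Procr were scanned too and are not shown. GAGGAA was found 1 time before Plac8 and not before the others. The Runx motif was found 1 time before Cst7 and 2 times before Plac8, and the C/EBP motif 1 time each before Cd244a and Procr. A match describes the letters only.

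Reads counted on genes came to 55075391 in cluster 9 and 268686756 in cluster 8. The median cell had 702641 reads in cluster 9 (range 298623 to 4290259) and 861780 in cluster 8 (range 159181 to 6999570). Within a group the median depths lay close: 2093859 reads per cell in cluster 9 and 1949032 in cluster 8 at E10, 2215614 and 2498035 at E11, 1715362 and 1446324 in G2VInt cells at E11.5, and 564474 and 466202 in G2VLo cells. The median mitochondrial share was higher in cluster 9 in every group, at 2.41% against 2.05% at E10, 3.16% against 2.54% at E11, 3.40% against 2.55% in G2VInt cells at E11.5 and 6.38% against 5.93% in G2VLo cells. Counts were summed over the cells of a cluster and given as CPM, the counts scaled to a total of 1000000 in each sum, and a fold is a ratio of 2 such levels. Intervals of levels and folds are exact 95% Poisson intervals and cover counting error only. Those of shares are 95% Clopper-Pearson intervals, which take cells as independent draws. Neither kind covers variation between embryos. CPM is not divided by gene length, so levels are compared for 1 gene at a time.

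A gene counted as measured where 1 of the clusters had 10 CPM or more of it and 5% or more of that cluster's cells had a read, which 9863 genes met. Of these, 3.72% (367 genes) were at least 2-fold higher in cluster 9 and 9.96% (982) at least 2-fold lower. The share was 2.18% (215 genes) for genes 2-fold higher in the sum and higher in each of the 4 groups, and 8.19% (808) for genes lower in the same way. In all, 39.7% of the genes were higher by any size. Of the 6 genes given as markers of cluster 9, 5 were at least 2-fold higher, and these were Mpo, Perp, Cd69, Cd244a and Ptgs2. Flt3 was not. Because the 6 were given as its markers, their count is a description and no evidence for the cluster.

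**Figure D1:**
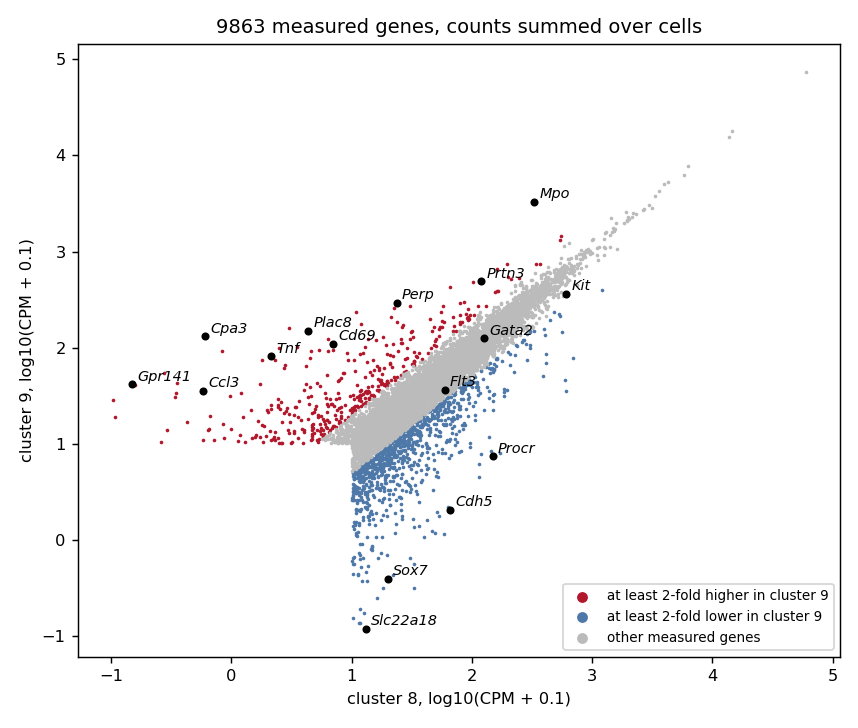
Level of each of 9863 measured genes in cluster 9 (vertical axis) and cluster 8 (horizontal axis), as log10(CPM + 0.1) of counts summed over cells. Red points are at least 2-fold higher in cluster 9 and blue points at least 2-fold lower; Mpo, Cpa3 and Plac8 lie far above the diagonal, Cdh5 and Procr far below it, and Gata2 on it.

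The gene for myeloperoxidase, Mpo (chr11:87793581-87804413, plus strand), set cluster 9 apart in level and not in presence. Over single cells its lowest, median and highest values were 0, 1541 and 12792 CPM in cluster 9 and 0, 267 and 2177 CPM in cluster 8. The ranges overlapped: 40 of 43 cells of cluster 9 were above the median of cluster 8, and 16 were above its highest cell. The summed level was 3300 CPM in cluster 9 and 329 CPM in cluster 8, a ratio of 10.0 (95% interval 9.95 to 10.1). With every cell thinned to 100000 reads, 97.7% of the cells of cluster 9 and 95.5% of those of cluster 8 had an Mpo read, beside 12.8% of the 335 cells of the class EC, which stand for background (median depths 702641, 861780 and 919829 reads). The ratio was 8.80 at E10, 13.1 at E11, 10.6 in G2VInt cells at E11.5 and 5.39 in G2VLo cells.

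Prtn3 showed the same order with a smaller ratio. Its lowest, median and highest cells had 0, 267 and 1729 CPM in cluster 9 and 0, 92.4 and 499 CPM in cluster 8, and the summed levels were 489.6 and 119.5 CPM, 4.10-fold higher in cluster 9. It was higher in cluster 9 in all 4 groups. Elane, its neighbour on chromosome 10, did not reach 10 CPM in either cluster: it had 485 reads (8.81 CPM) in cluster 9 and 20 reads (0.0744 CPM) in cluster 8, with a read in 5 thinned cells of cluster 9 and 2 of cluster 8. Ctsg had 0 reads in both clusters. Taking 3 cells as the limit for 0, which is not an exact interval, allows a share of up to 6.98% in cluster 9 and 1.52% in cluster 8.

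Of 20 genes of granules and early myeloid cells, 15 were measured. Of these, 12, among them the given marker Mpo, were at least 2-fold higher in cluster 9, and 1 was lower. Of the 12, 10 had the same direction in every group. The median log2 ratio of the 15 was 2.12, beside -0.11 over all measured genes. Summed over the 20 genes, the median cell had 3661 CPM in cluster 9 and 2480 CPM in cluster 8. That median was 3768 CPM in cluster 10, another HC2 cluster of the same clustering, and 2378 CPM in EC cells. Cst7, which encodes the protease inhibitor cystatin F, had 61.6 CPM in cluster 9 and 2.62 CPM in cluster 8. Plac8, a gene of immature myeloid cells, had 149 and 4.27 CPM, and 79.1% of cells in cluster 9 against 15.7% in cluster 8 had a read. Serpinb1a, an inhibitor of the granule proteases, had 196 and 45.2 CPM, and Calr, a chaperone needed to fold myeloperoxidase, had 1333 and 543 CPM. Hp, the gene for haptoglobin, was 686-fold higher by the sum (interval 422 to 1202), but it was read in 8 cells of cluster 9 only and in 1 of cluster 8. The member that was lower was Igfbp4, a binding protein of insulin-like growth factors, with 400.2 CPM in cluster 9 and 1210 CPM in cluster 8.

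**Figure D2:**
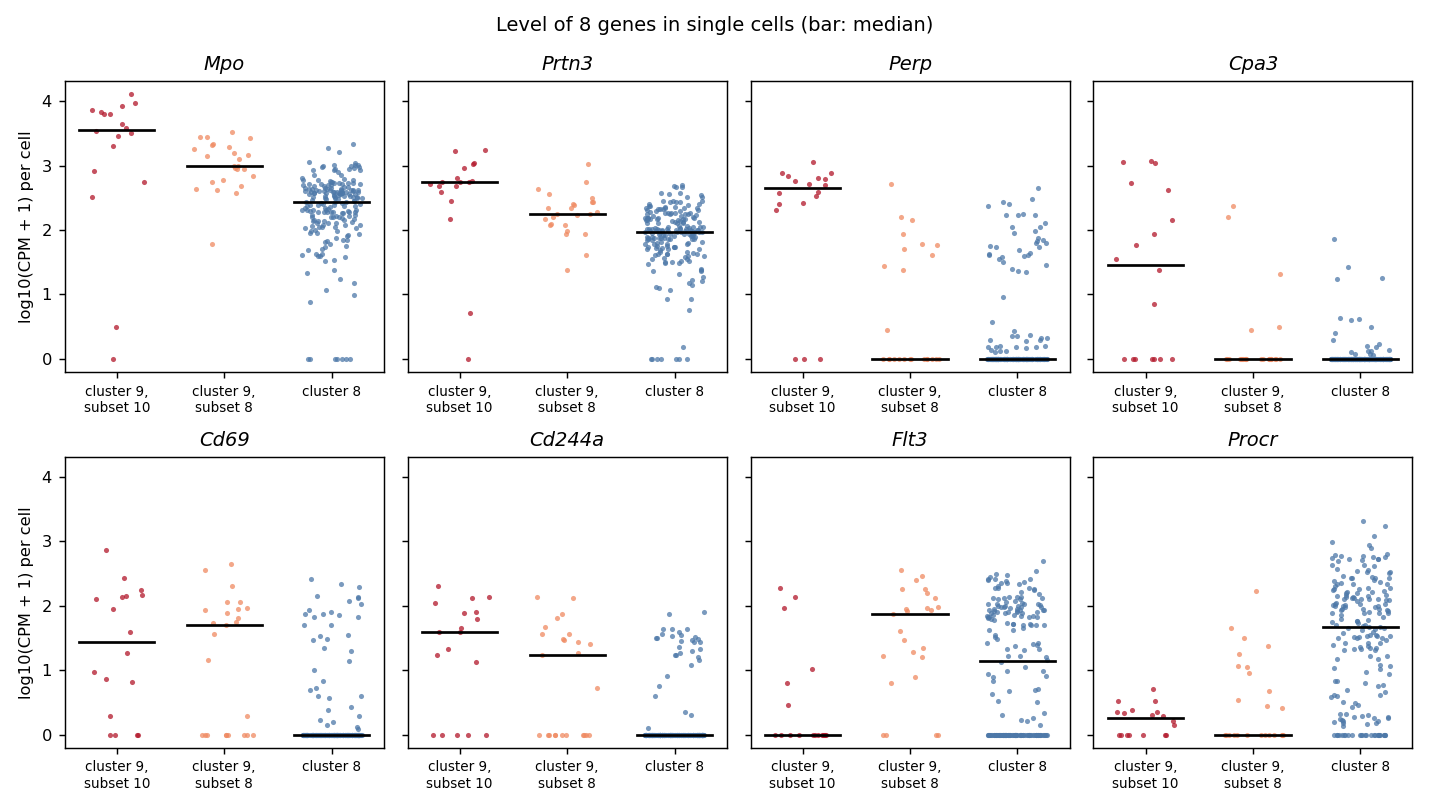
Level of 8 genes in single cells as log10(CPM + 1), with the 18 and 25 cells of cluster 9 (subset 10 and subset 8, after the cluster each cell has when all cells are clustered) left of cluster 8; bars are medians. Mpo and Prtn3 decrease over the 3 sets with overlap, Perp and Cpa3 are mostly in subset 10, Flt3 is mostly in subset 8 and cluster 8, and Procr is mostly in cluster 8.

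The other markers were present in only some cells of cluster 9. Perp (chr10:18845020-18857073, plus strand), a membrane protein of desmosomes and a target of p53, had 0, 50.4 and 1122 CPM in the lowest, median and highest cell of cluster 9, and 0, 0 and 444 CPM in those of cluster 8. A read was found in 60.5% (44.4 to 75.0%) of the thinned cells of cluster 9, 17.7% (12.6 to 23.7%) of those of cluster 8 and 0.896% of EC cells. Summed, Perp was 12.4-fold higher in cluster 9.

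Cd69 (chr6:129267325-129275436, minus strand), a surface lectin that holds lymphocytes in tissue after activation, had 0, 38.3 and 728 CPM in the lowest, median and highest cell of cluster 9 and 0, 0 and 263 CPM in those of cluster 8. It was read in 60.5% and 13.6% of thinned cells, and in 0 of 335 EC cells, which by the limit of 3 cells allows up to 0.896%. The summed level was 15.8-fold higher in cluster 9, a log2 ratio of 3.99, which was 3.17 without the 1 cell with the most Cd69 reads. Cd69 was not higher in all groups: at E10 its log2 ratio was -1.76, with a read in 1 of the 5 cells of cluster 9.

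Cd244a (chr1:171559193-171609746, plus strand) encodes the receptor 2B4 of the SLAM family, which binds CD48. It had 0, 20.2 and 199 CPM in the lowest, median and highest cell of cluster 9 and 0, 0 and 78.3 CPM in those of cluster 8, and 58.1% against 13.6% of thinned cells had a read (0.299% in EC cells). The gene of its ligand, Cd48, had 77.2 CPM in cluster 9 and 4.38 CPM in cluster 8, with reads in 53.5% and 10.6% of cells. Both were higher in cluster 9 in all 4 groups.

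Ptgs2 (chr1:150100031-150108227, plus strand), the inducible cyclooxygenase that starts prostaglandin synthesis, rested on few cells. It had 0, 0 and 837 CPM in the lowest, median and highest cell of cluster 9 and 0, 0 and 393 CPM in those of cluster 8. The shares of cells with a read were 30.2% (17.2 to 46.1%) and 19.2% (13.9 to 25.4%), and EC cells had 1.79%. The summed level was 7.08-fold higher in cluster 9, a log2 ratio of 2.82, which was 0.56 without the single cell with the most Ptgs2 reads. Ptgs1, the constitutive cyclooxygenase, was lower in cluster 9 in all 4 groups, with 241 CPM against 373 CPM.

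Flt3 (chr5:147330741-147400489, minus strand), the receptor tyrosine kinase of lymphoid and dendritic progenitors, did not separate the clusters as a whole. It had 0, 14.7 and 355 CPM in the lowest, median and highest cell of cluster 9 and 0, 12.9 and 499.7 CPM in those of cluster 8, and 53.5% and 51.0% of thinned cells had a read (1.79% in EC cells). The summed level was 36.1 CPM in cluster 9 and 59.4 CPM in cluster 8, a log2 ratio of -0.72. That sign turned to 0.15 with the mean of per-cell CPM and to 0.13 with each cell thinned to 100000 reads.

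The 43 cells were not of 1 kind in the authors' clustering of all cells, which includes the CD27+ cells. It put 18 of them into its cluster 10, called subset 10 here, and 25 into its cluster 8, called subset 8. Subset 10 held 2 of the 5 cells at E10, 5 of 7 at E11, 6 of 8 G2VInt cells at E11.5 and 5 of 23 G2VLo cells. The subsets therefore differed in gate and in depth, with medians of 1715362 reads per cell in subset 10 and 593283 in subset 8, and the part of these in the values below was not tested. Of the cells of cluster 8, 170 lay in cluster 8 of all cells, 23 in its cluster 7 and 5 elsewhere.

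The median cell had 3573 CPM of Mpo in subset 10, 990.2 CPM in subset 8 and 267 CPM in cluster 8, so subset 8 lay between. Perp had a median of 447 CPM in subset 10 and 0 CPM in both subset 8 and cluster 8. Flt3 was read in 4 of 18 thinned cells of subset 10 and in 19 of 25 of subset 8, beside 51.0% of the cells of cluster 8. Cd27, the sorted receptor, was read in 3 of 18 cells of subset 10, 17 of 25 of subset 8 and 82.3% of those of cluster 8. Within the G2VLo gate alone, median Mpo was 2928 CPM in the 5 cells of subset 10, 1137 CPM in the 18 of subset 8 and 280.4 CPM in the 92 of cluster 8, and Flt3 was read, before thinning, in 2, 16 and 53 of these cells. Cd27 was read, before thinning, in 1 of the 5, 15 of the 18 and 76 of the 92, so subset 8 and cluster 8 lay close there.

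Between the subsets, 9.29% of 9554 measured genes (888) were at least 2-fold higher in subset 10 and 9.07% (867) lower. Set against cluster 8, subset 10 had 6.36% of genes higher and 15.1% lower, and subset 8 had 2.33% higher and 10.6% lower. The genes named as highest in subset 10 had at most 0.114 CPM in subset 8. They were Gpr183 (142 CPM in subset 10), an oxysterol receptor that guides immune cells; Hp (78.3 CPM); Lpxn (58.7 CPM), an adaptor of adhesion sites; Tent5a (46.3 CPM); Fbp2 (45.0 CPM); Il10ra (36.0 CPM), the interleukin 10 receptor; Padi2 (26.8 CPM), which makes citrulline in proteins; Adgre4 (25.6 CPM); and Fcgr2b (18.3 CPM), the inhibitory receptor for immunoglobulin G. Each of these was read in 22.2 to 50.0% of the thinned cells of subset 10. The 10 named as lowest in subset 10 were Chl1, Zfp763, Frmd6, Rdh12, Nradd, Plpp7, Arhgap32, Cdr2, the chemokine receptor gene Cxcr3 and Hoxa9. Hoxa9, a homeobox factor of HSCs and progenitors, had 0.313 CPM in subset 10 and 66.8 CPM in subset 8, beside 112 CPM in cluster 8.

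Cpa3, the carboxypeptidase of mast cell granules, followed subset 10. It had 235 CPM in subset 10, 17.1 CPM in subset 8 and 0.499 CPM in cluster 8, with a read in 10 of 18 and 4 of 25 thinned cells of the subsets and in 6 cells of cluster 8. Flt3 and Cpa3 were not read together in any of the 43 thinned cells, of which 23 had a Flt3 read and 14 a Cpa3 read. The exact 95% interval of that share reaches 8.22%. Before thinning, some cells of cluster 9 had reads of both. Among them were a cell at E11 with 14.7 CPM of Flt3 and 157 CPM of Cpa3, and a G2VInt cell at E11.5 with 9.45 and 143 CPM. Perp and Cpa3 were read together in 13 thinned cells of cluster 9.

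Cluster 10 of the clustering without CD27+ cells, with 52 cells, of which 41 lie in cluster 10 of all cells, had 714 CPM of Mpo, between subset 8 and cluster 8 in order of level. It was above every set shown in Gata2 (619 CPM, against 149 CPM in subset 10), Cpa3 (418 CPM) and Plac8 (661 CPM), and its Gata1, the erythroid and mast cell GATA factor, reached 325 CPM against 25.5 CPM in subset 10. Of 16 genes of mast cells and basophils, 3 were measured in cluster 9 or cluster 8, and these were Cpa3, Hdc and Mitf. Ms4a2 had 1 read in cluster 9, and Mcpt8, Cma1, Tpsb2 and Prss34 had none. Car1, of red cell precursors, had 1 read in cluster 9.

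**Figure D3:**
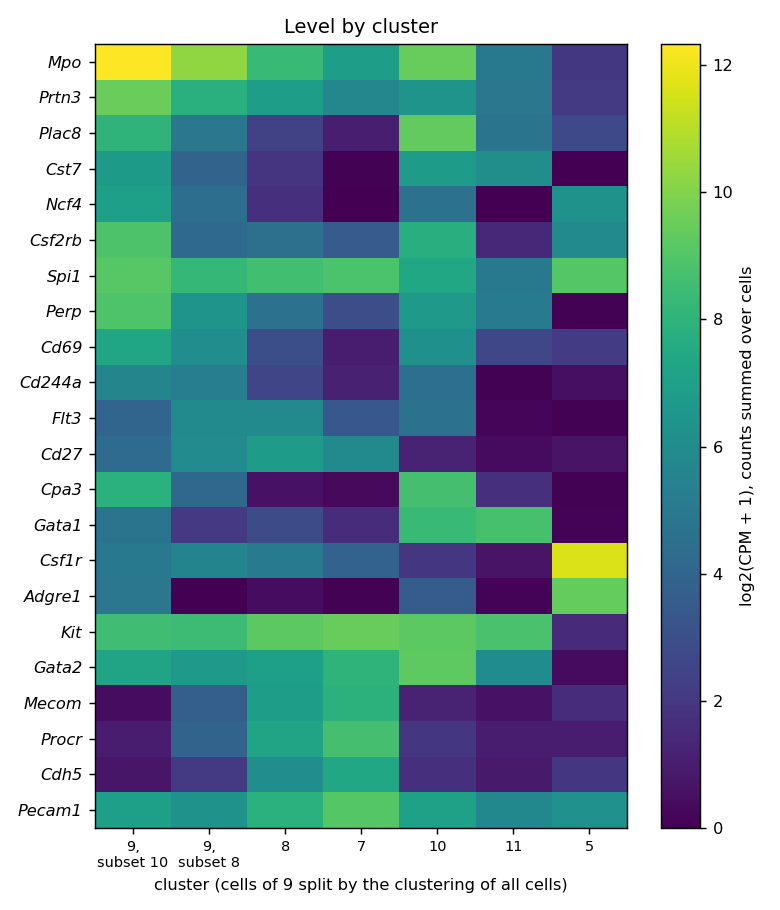
Level of 22 genes as log2(CPM + 1) of counts summed over the cells of a cluster (colour), with cluster 9 split into subset 10 and subset 8 and set beside clusters 8, 7, 10, 11 and 5. Mpo is highest in subset 10, Cpa3 and Gata2 are highest in cluster 10, Csf1r and Adgre1 in cluster 5, and Procr and Cdh5 in cluster 7.

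Genes of the factors and receptors of myeloid cells were less uniform than granule genes. Of 26 listed, 19 were measured, and 7 were at least 2-fold higher in cluster 9 and 1 lower, with a median log2 ratio of 0.79. Summed over the list, the median cell had 1159 CPM in cluster 9, 850 CPM in cluster 8 and 1701 CPM in cluster 10 (HC2). Cebpa, the factor that granulocyte fate requires, had 24.3 CPM in cluster 9 and 2.35 CPM in cluster 8, with reads in 34.9% and 4.04% of cells. Spi1 was at similar levels, 439 and 389 CPM, and was read in all thinned cells of both. Irf8, a factor of monocytes and dendritic cells, had 21.6 and 23.9 CPM. Gfi1, a repressor that acts both in granulocyte precursors and when hematopoietic cells leave the endothelium, was lower in cluster 9 in all groups, with 5.90 CPM against 32.6 CPM.

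Among receptors, Csf2rb, the common beta chain of the receptors for interleukin 3, interleukin 5 and GM-CSF, had 257 CPM in cluster 9 and 22.5 CPM in cluster 8. It had 475 CPM in subset 10 and 17.9 CPM in subset 8. Csf3r, the G-CSF receptor, had 135 and 78.4 CPM and was read in 90.7% and 75.3% of cells. Csf1r, the receptor of macrophages, had 38.8 and 32.5 CPM, beside 3326 CPM in cluster 5. The adaptors Fcer1g and Tyrobp and the receptor gene Fcgr3 were 3.60-, 4.26- and 6.17-fold higher in cluster 9. With subset 8 alone set against cluster 8, the median of the list turned to -0.14.

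Of the 7 listed subunits of the phagocyte oxidase, which makes superoxide, 6 were measured and 3 were at least 2-fold higher in cluster 9. The summed list had medians of 1693 CPM in cluster 9, 1044 CPM in cluster 8 and 2111 CPM in cluster 10 (HC2). Ncf4 had 74.2 CPM in cluster 9 and 2.23 CPM in cluster 8, and 14 cells of cluster 9 were above the highest cell of cluster 8. Ncf1 had 148 and 46.5 CPM, and Rac2, the GTPase of the complex in blood cells, had 1467 and 547 CPM. Cybb, the catalytic subunit, had 1 read in cluster 9 and 12 in cluster 8.

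Late neutrophil genes were at or near 0. None of 13 genes of late neutrophils was measured, 10 of them had 0 reads in cluster 9, among them S100a8, S100a9, Lcn2 and Camp, and Ltf had 1.24 CPM in cluster 9 and 3.13 CPM in cluster 8. Of 20 genes of macrophages and monocytes, 4 were measured. Of these, 2 were at least 2-fold higher and 1 at least 2-fold lower, with a median log2 ratio of 1.44, which was 1.13 at E10, 1.15 at E11, -0.77 in G2VInt cells at E11.5 and -0.53 in G2VLo cells. Cd83, a surface protein of activated immune cells, had 18.8 CPM in cluster 9 and 1.15 CPM in cluster 8, with a read in 4 and 10 thinned cells, and was higher in 2 groups and lower in 2. Cx3cr1, the fractalkine receptor, had 11.6 and 1.62 CPM, with a read in 9 and 16 thinned cells, and was higher in 3 groups. Cd68 had 14.8 and 14.5 CPM. C1qa had 7 reads in cluster 9 and Ctss 6, and Lyz2, which is also read in early myeloid cells, was lower in cluster 9, with 116 CPM against 259.5 CPM. Summed over that list, cells of cluster 9 had 1.84 to 1099 CPM and those of cluster 8 had 3.40 to 1565 CPM, with medians of 121 and 264 CPM, beside 20532 CPM in cluster 5. Adgre1, the gene of F4/80, had 28.7 CPM in subset 10, where 2 of 18 cells had a read, and 0 reads in subset 8.

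Surface receptors of lymphoid and myeloid cells were mostly higher. Of 23 listed, 13 were measured, 10 were at least 2-fold higher in cluster 9 and 2 lower, with a median log2 ratio of 2.30. Besides Cd69, Cd244a and Cd48, these include the leukocyte surface genes Cd53 (123 CPM in cluster 9 and 6.27 CPM in cluster 8), Cd52 (94.8 and 5.21 CPM) and Cd37 (186 and 23.6 CPM). Median summed levels of the list were 656 CPM in cluster 9, 310 CPM in cluster 8 and 806 CPM in cluster 10 (HC2). Cd27 was lower in all 4 groups, with 39.1 and 112 CPM. At E10, 0 of the 5 cells of cluster 9 had a Cd27 read, which by the limit of 3 cells allows a share of up to 60.0%. Of 32 lymphoid genes, 12 were measured, 1 was at least 2-fold higher and 3 were lower, with a median of -0.22. Rag1, Ly6d and Pax5 had 0 reads in cluster 9, and Gata3, a factor of T cells and of early progenitors, had 2.69 CPM against 24.9 CPM. Il7r, the interleukin 7 receptor, was read in 36.0% of cells in subset 8, 5.56% in subset 10 and 9.09% in cluster 8.

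Genes of HSCs were lower in cluster 9 as a group. Of 25 listed, 23 were measured, none was at least 2-fold higher and 16 were at least 2-fold lower in the pooled sum, with a median log2 ratio of -1.64. Each of the 16 was lower by any size in every group, and 12 genes of the list were at least 2-fold lower in G2VLo cells. The summed list had a median of 2587 CPM in cluster 9, 4772 CPM in cluster 8 and 1784 CPM in cluster 10 (HC2). Procr, the endothelial protein C receptor used to isolate HSCs, had 0, 0.610 and 168 CPM in the lowest, median and highest cell of cluster 9 and 0, 46.1 and 2053 CPM in those of cluster 8. Mecom, a factor that HSCs need to persist, was read in 18.6% of cells of cluster 9 and 82.8% of cluster 8. In subset 10 its level was 0.348 CPM, and in subset 8 it was 12.3 CPM, beside 114 CPM in cluster 8. Hlf, a factor confined to early HSCs and progenitors in blood, was 4.09-fold lower in cluster 9, and Vwf, read in platelets, endothelium and some HSCs, 21.3-fold lower. Meis1, a homeobox factor of HSCs, had 241 CPM in cluster 9 and 261 CPM in cluster 8.

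The factors of the endothelial-to-hematopoietic transition were at closer levels. Of 16 listed, all were measured, 0 were at least 2-fold higher and 2 lower, with a median of -0.37. Runx1, the factor without which no definitive blood cells form, had 294 CPM in cluster 9 and 267 CPM in cluster 8. Myb, needed for definitive blood cells, had 158 and 189.8 CPM. Gata2, whose allele carries the reporter, had 0, 78.9 and 1915 CPM in the lowest, median and highest cell of cluster 9 and 0, 91.7 and 735 CPM in those of cluster 8, and 125 CPM in the sum of each. Kit, the stem cell factor receptor used for the sort, was lower in cluster 9 in each group, with a median cell of 274 CPM against 560.4 CPM, and it was read in all thinned cells of cluster 9. Of 19 genes of all blood cells, 4 were at least 2-fold higher and none 2-fold lower, with a median of 0.30, and Ptprc, the gene of CD45, had 138 and 128 CPM.

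Endothelial genes were lower in cluster 9. Of 20 listed, all were measured and lower in cluster 9, and 19 were at least 2-fold lower in the pooled sum, 18 of them lower by any size in each of the 4 groups, with a median log2 ratio of -2.50. Cdh5, which encodes VE-cadherin, the adhesion protein of endothelial junctions, had 0, 0 and 24 CPM in the lowest, median and highest cell of cluster 9 and 0, 39.6 and 407 CPM in those of cluster 8. It was read in 16.3% and 81.8% of thinned cells, and in 99.4% of EC cells. Pecam1, the gene of CD31 and a sorted protein, had 103 and 236 CPM, and Esam, an adhesion protein of endothelium and HSCs, 50.3 and 393 CPM. Egfl7 was the member under 2-fold, with 351 and 494 CPM.

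Summed over the 20 genes, the lowest, median and highest cells had 60.3, 809 and 5241 CPM in cluster 9 and 643, 2636 and 9656 CPM in cluster 8, and 40 of 43 cells of cluster 9 were below the median of cluster 8. The median was 576 CPM in subset 10, 1453 CPM in subset 8, 445 CPM in cluster 10 (HC2) and 14593 CPM in EC cells. Of 9 measured arterial genes, 7 were at least 2-fold lower, with a median of -4.29. Few cells of cluster 8 had a read of these genes: Sox17 and Dll4, which act in arterial endothelium, were read in 16.2% and 17.7% of them, and without the 28 cells of cluster 8 that lie outside cluster 8 of all cells, 3 genes of the list were measured and their median was -0.13. Matrix genes of the basement membrane were also lower, 12 of 15 at least 2-fold, with Col4a1 at 31.3 and 184 CPM and Sparc at 10.2 and 97.1 CPM.

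**Figure D4:**
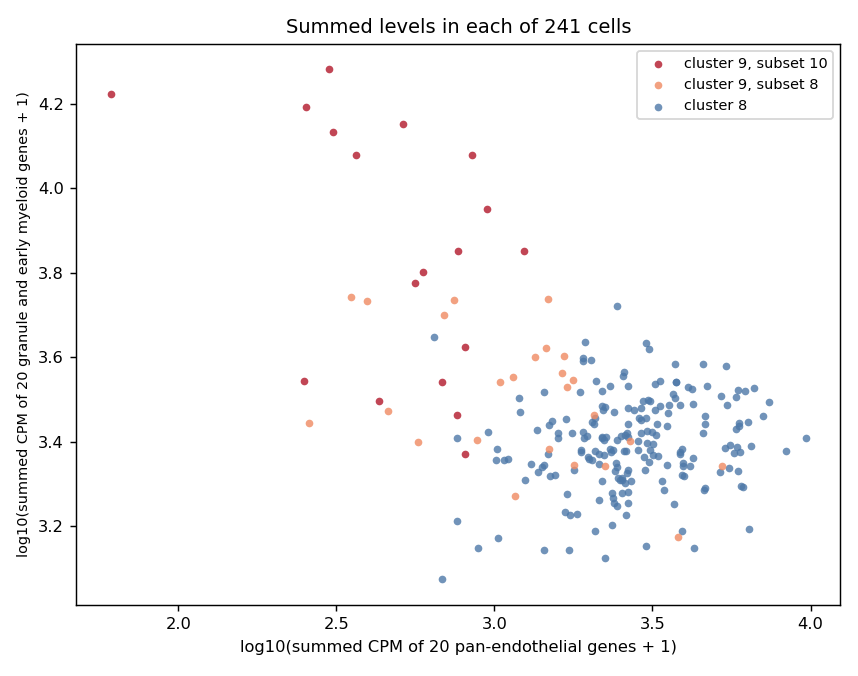
Each point is 1 of 241 cells, by its summed level of 20 pan-endothelial genes (horizontal axis) and of 20 granule and early myeloid genes (vertical axis), both as log10(CPM + 1). Most of subset 10 lies to the upper left, cluster 8 to the lower right, and subset 8 between and overlapping cluster 8.

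The 15 genes named as highest in cluster 9, among 195 that met the rule, were Gpr141, Slc2a6, Cpa3, Arhgap15, Ccl3, Emilin2, Dok3, Tnf, Plac8, Ncf4, Milr1, Atp8b4, Gadd45b, Cst7 and Nfkbiz. Gpr141, an orphan receptor, had 41.3 CPM in cluster 9 and 0.0484 CPM in cluster 8, and Slc2a6, a sugar transporter of macrophages, 54.8 and 0.175 CPM. Both were read in 10 of 18 cells of subset 10, and in 0 and 1 of 25 cells of subset 8. Arhgap15, a GTPase-activating protein for Rac, had 91.6 and 0.741 CPM and a read in 72.1% and 5.56% of cells. Emilin2, a matrix glycoprotein, had 159 and 2.90 CPM, and Dok3, an adaptor that restrains receptor signalling in myeloid and B cells, 99.4 and 2.41 CPM. Milr1, an inhibitory receptor of mast cells, had 41.8 and 1.63 CPM.

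Tnf, Ccl3, Nfkbiz and Gadd45b, which respond to inflammatory signals, were among the 15. Of 14 such genes listed after values had been seen, 10 were measured and 9 were at least 2-fold higher in the pooled sum. Their median log2 ratio was 3.13, and by group it was 0.74 at E10, 4.86 at E11, 2.45 in G2VInt cells at E11.5 and 0.69 in G2VLo cells, where 4 were at least 2-fold higher and 1 lower. Tnf had 80.9 CPM in cluster 9 and 2.02 CPM in cluster 8, with a read in 32.6% and 8.08% of cells, and Ccl3 had 35.6 and 0.476 CPM, with reads in 27.9% and 3.54%. Single cells weighed on both: without the cell with the most reads of the gene, the log2 ratio of Tnf was 3.64 in place of 5.32, and that of Ccl3 was 4.89 in place of 6.22. Il1b had 22.1 and 1.89 CPM and was higher in 2 of the 4 groups. Nfkbia, an inhibitor of NF-kappa B that the factor itself induces, had 426 and 65.3 CPM and was higher in all 4. Of 17 measured immediate-early genes, which respond to stimulation and also to tissue dissociation, 6 were at least 2-fold higher, with a median of 0.91 in the pooled sum, among them Fos with 165 and 56.0 CPM and Junb with 273 and 30.4 CPM. The median was 0.29 at E10, 0.12 at E11, 1.78 in G2VInt cells at E11.5 and -0.005 in G2VLo cells, where 1 was at least 2-fold higher and 3 lower. The part of dissociation was not tested.

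The 15 named as lowest, among 735, were Slc22a18, Hid1, P3h3, Myl9, S100a16, Sox7, Efna1, Clec14a, Mmrn2, Ddah1, Pxdn, Adgrf5, Pdzk1ip1, Nupr1 and Cdh5. Slc22a18, a transporter gene, had 1 read in cluster 9 and 3512 in cluster 8, and Hid1, a protein of the Golgi, had 0.218 and 32.9 CPM. Sox7, Clec14a, Mmrn2, Adgrf5 and Cdh5 are endothelial. Sox7, for example, had 0.290 CPM in cluster 9, 19.8 CPM in cluster 8 and 238 CPM in EC cells. Pdzk1ip1, a gene high in HSCs, had 1.14 CPM in cluster 9, 46.8 CPM in cluster 8 and 0.921 CPM in EC cells, and Nupr1, a stress-responsive nuclear protein of HSCs, 0.363, 13.0 and 0.213 CPM.

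Few genes of the cell cycle differed 2-fold between the clusters. Of 42 genes of S phase, none was 2-fold higher or lower, with a median of -0.03. Of 50 of G2 and M phase, 0 were 2-fold higher and 1 lower, with a median of -0.31. By any size, 43 of these 50 were lower and 7 higher, beside 5949 of all 9863 measured genes lower. The G2 and M median was -0.11 at E10, -0.43 at E11, -0.48 in G2VInt cells at E11.5 and 0.41 in G2VLo cells. Of 14 measured p53 targets and genes of cell death, 5, among them the given marker Perp, were at least 2-fold higher in the pooled sum. None was 2-fold lower, and the median log2 ratio of the 14 was 0.64. In G2VLo cells 4 were higher and 1 lower, with a median of 0.32. With subset 8 set against cluster 8, 2 were higher and 0 lower, with a median of 0.31. Cdkn1a, the cell cycle inhibitor p21, had 211 CPM in cluster 9 and 21.0 CPM in cluster 8, Bcl2l11, the death activator Bim, 178 and 11.8 CPM, and Pmaip1, the death activator Noxa, 118 and 15.9 CPM. Mdm2, which p53 also induces, had 78.3 and 86.1 CPM. Cdkn1a had 383 CPM in subset 10 and 22.1 CPM in subset 8.

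**Figure D5:**
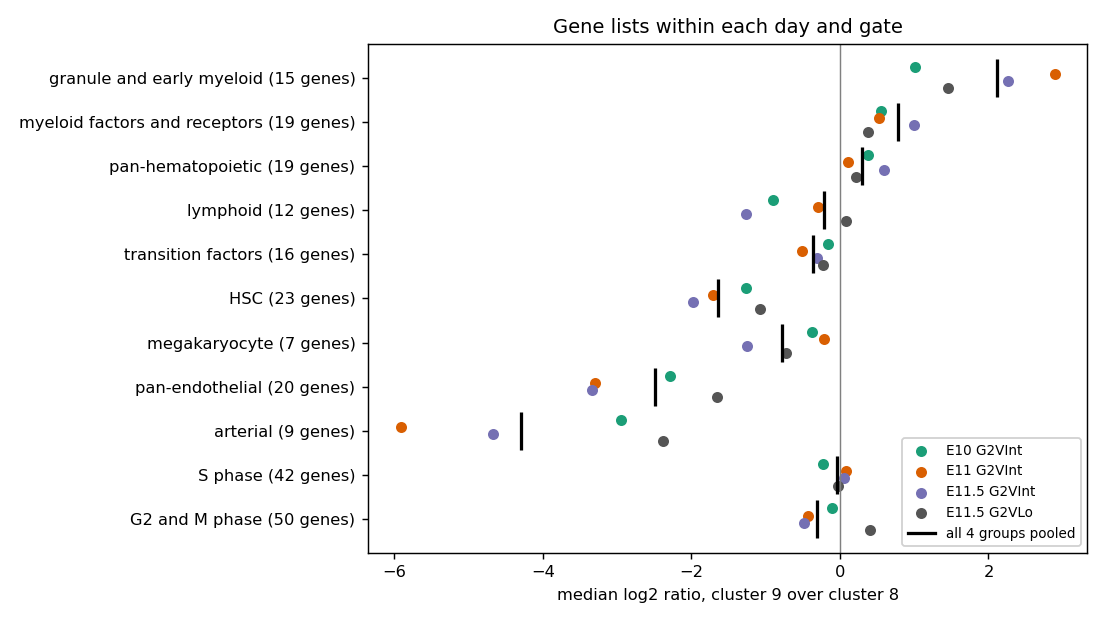
Median log2 ratio of cluster 9 over cluster 8 for 11 gene lists, with a point for each of the 4 groups and a bar for all groups pooled. Granule and early myeloid genes lie above 0 and HSC, pan-endothelial and arterial genes below 0 in every group, while S phase genes lie near 0.

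The G2VLo cells at E11.5, the group with the most cells of cluster 9, were also set apart from the rest. Among 9693 measured genes, 2.48% (240) were at least 2-fold higher in cluster 9 and 9.83% (953) lower. The 3 G2VInt groups pooled gave 4.86% (482 genes) and 11.8% (1166 genes) of 9919. Taken singly, these groups gave 4.62% higher and 13.3% lower at E10, 6.94% and 20.3% at E11 and 9.38% and 18% at E11.5. The G2VLo and the pooled G2VInt comparison share no cell. Of the genes 2-fold higher in G2VLo cells, 51.3% (123 genes) were also 2-fold higher in G2VInt cells, where they made up 25.5% of the list, and of the genes 2-fold lower, 48.2% (459 genes) were also lower in G2VInt cells, 39.4% of that list.

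Within G2VLo cells, 4 of the 6 given markers were at least 2-fold higher in cluster 9. Mpo had 1878 CPM in cluster 9 and 349 CPM in cluster 8, Perp 114 and 11.2 CPM, Cd69 had a log2 ratio of 2.33 and Cd244a one of 4.67. Flt3 was higher here, with a log2 ratio of 0.62 and a median cell of 89.3 CPM in cluster 9 against 15.3 CPM in cluster 8, while it was lower in the 3 G2VInt groups. Perp was read in 9 of 23 cells of cluster 9 before thinning, against all 5 cells at E10, all 7 at E11 and 5 of 8 G2VInt cells at E11.5, with shallower libraries in G2VLo cells. Granule and early myeloid genes had a median log2 ratio of 1.46 in G2VLo cells, against 1.02 at E10, 2.89 at E11 and 2.26 in G2VInt cells at E11.5. For HSC genes the medians were -1.08 in G2VLo cells and -1.27, -1.72 and -1.98 in the 3 G2VInt groups by day, and for pan-endothelial genes -1.66 and -2.29, -3.30 and -3.33. Subset 8 made up 18 of the 23 cells of cluster 9 in G2VLo cells and 7 of the 20 in G2VInt cells. The values above therefore mix gate and makeup. Within subset 8, the median summed HSC level was 2970 CPM in G2VLo and 3026 CPM in G2VInt cells. Pan-endothelial genes had 1480 and 1347 CPM. Within subset 10 the HSC medians were 1629 and 1888 CPM, and the pan-endothelial ones 679 and 512 CPM. Before thinning, Perp was read in 5 of 18 G2VLo and 6 of 7 G2VInt cells of subset 8. The parts of gate, day and depth were not tested.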

How the data were processed

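Transcriptomes of single cells were sequenced from Nextera XT libraries on an Illumina HiSeq, per the labels' protocols. The authors deposited whole-number counts per gene and cell, made with HTSeq 0.6.0 on GRCm38 per the submitters' processing notes; the aligner and its settings are not given in the sources used here. No molecular identifiers are named, so Poisson intervals cover counting error of reads only and are too narrow. Clopper-Pearson intervals take cells as independent draws and cover no variation between embryos. Clusters and classes are the authors' deposited ones. No doublet caller was run.

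Gene IDs (46078) were matched to GENCODE M21 symbols (45143 matched; the others hold 0.0960% of counts). Counts were summed over cells and scaled to CPM. A count of 0 was set to a floor of 3 counts in a ratio. Genes counted as measured at 10 CPM in 1 cluster with a read in 5% of its cells, and as higher or lower at 2-fold. Shares of cells are after thinning each cell to 100000 reads; no cell was shallower. Each group is 1 sample, so no model was fitted.

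The genes named are the given markers, the reporter gene and sorted proteins, members of the lists with large ratios or at 0, and the 15 highest and 15 lowest ratios among genes read in 20% of thinned cells, 2-fold in the sums, 1.5-fold by the mean of per-cell CPM and alike in direction in 4 groups. Unnamed, mitochondrial, ribosomal and sex-linked genes were passed over. The 10 each way between the subsets follow the same rule without the groups. Of these, 1 is not reported here. Members with small ratios were named for their role after their values were seen. Members and the 22 lists were chosen with earlier results of these data known, and 5 lists (phagocyte oxidase, inflammatory signalling, basement membrane and matrix, smooth muscle, Hox) after the values had been seen. Alternatives were the mean of per-cell CPM, thinning, equal weight of groups, leaving out each group, edgeR's TMM scaling, totals without mitochondrial genes, other CPM minimums, each subset, only the cells of cluster 8 shared by both clusterings, and cells with lower or upper library numbers. Tools were Python 3.11.15, numpy 2.4.6, pandas 2.3.3, scipy 1.17.1, matplotlib 3.10.9, R 4.3.3 and edgeR 4.0.16.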

Additional observations from a re-analysis of the deposited data

Results flagged for a closer look

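The markers Ptgs2, Cd69 and Flt3 went in opposite directions in different groups, and none of these differences was tested. Ptgs2 had a log2 ratio of cluster 9 over cluster 8 of 4.08 at E11 and of -0.67 in G2VInt cells at E11.5. Cd69 had 4.76 at E11 and -1.75 at E10, where cluster 9 had 5 cells. Flt3 had 0.62 in G2VLo cells and -3.27 in G2VInt cells at E11.5.

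Cells sorted as CD27+, which the comparison does not use, had 10.5 CPM of Cd69, above the 6.93 CPM of cluster 8.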

How the results depend on the processing

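No paired analysis was possible because the results come from no test and the cells share no replicate numbers. Of the alternatives to the counts and list medians, 410 stayed within a set limit, 41 moved beyond it, and 4 were counted as reversed. For single genes the numbers were 575, 34 and 3. The limit was 1.5-fold for a count of genes and the SD over the 4 groups for a list median or a gene. A list median counted as reversed only where its main value was larger than that SD. Smaller list medians that changed sign were not counted as reversed. The cause was not tested unless the setting itself shows it.

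With a minimum of 1 CPM, which admits more genes, 839 were 2-fold higher and 2516 lower (756 and 2412 in G2VLo cells), and the median of all genes was -0.15 and that of eicosanoid genes 0.32. With no minimum, 3167 were higher and 5438 lower (2051 and 3833 in G2VLo cells), and the medians were 0.72 for adhesion and 0.90 for phagocyte oxidase genes.

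With subset 8 alone, 228 genes were higher, and the medians were 1.005 for granule, -0.88 for HSC and 0.24 for oxidase genes. The sign changed to -0.14 for myeloid factors and -0.30 for adhesion genes. It also changed for erythroid genes, from 0.09 to -1.28, and for eicosanoid genes, from 0.14 to -0.15. With subset 10 alone, 635 were higher and 1509 lower, and the medians were 1.12 for myeloid factors, -2.58 for HSC, -4.02 for pan-endothelial, 1.01 for adhesion and 1.503 for oxidase genes.

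Cells with lower library numbers gave 488 genes higher in G2VLo cells and medians of 0.23 for myeloid factors and 0.83 for oxidase genes. The sign changed to -1.003 for erythroid, -0.012 for eicosanoid and -0.49 for adhesion genes, and to -0.85 for Ptgs2. Those with upper numbers gave 561 higher (409 in G2VLo cells) and medians of 1.08 for myeloid factors, -0.037 for megakaryocyte and 1.09 for adhesion genes.

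TMM scaling moved the median of all genes to 0.005. The mean of per-cell CPM gave -2.57 for arterial genes and 0.15 for Flt3, and thinning gave 0.13 for Flt3. With the cells of cluster 8 shared by both clusterings, arterial genes had -0.13, over the 3 members measured in that setting, against 9. Leaving out each group in turn gave -0.97 to -0.32 for megakaryocyte genes (-0.32 without E10) and 0.037 (without G2VInt at E11.5) to 0.98 (without G2VLo) for adhesion genes. Without the cell with the most reads of the list, an alternative added after the data were seen, adhesion genes had 0.17.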

Other observations

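Other lineages and structural genes differed less or rested on few genes. Of 7 measured megakaryocyte genes, 1 was at least 2-fold higher in cluster 9 and 2 lower, with a median log2 ratio of -0.78, and of 5 measured erythroid genes 1 was higher and 2 lower, with a median of 0.09. The 3 measured mast cell and basophil genes were all at least 2-fold higher, with a median of 4.89, but of -2.88 at E10. Of 14 measured eicosanoid genes 3 were higher, among them the given marker Ptgs2, and 2 lower, with a median of 0.14. Of 17 adhesion and homing genes 7 were higher and 1 lower, with a median of 0.45.

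The 4 measured Hox genes were all at least 2-fold lower in cluster 9 in the pooled sum, with a median of -2.06. In G2VLo cells 1 of the 4 was 2-fold lower, with a median of -0.78. Set against cluster 8, subset 8 had 2 of them 2-fold lower (median -1.09) and subset 10 all 4 (median -5.47). Of 6 smooth muscle genes 3 were lower, with a median of -1.47. Acta2, the smooth muscle actin, had 1.83 CPM in cluster 9 and 51.7 CPM in cluster 8. Of the 13 measured housekeeping genes none was 2-fold higher or lower, with a median of 0.15.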
